A study of Mus musculus with 9 samples.

Results

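Amino acid transporters are the membrane proteins through which heart cells take up, release and exchange amino acids. A set of 10 such genes was read in the heart RNA of 9 mice: Slc3a2, Slc7a5, Slc7a8, Slc43a1, Slc1a5, Slc38a1, Slc38a2, Slc38a4, Slc7a1 and Slc7a2. They were found by gene symbol among the 13890 genes of the deposited count table, where all 10 had a row. All 10 also passed a filter on low counts, which removed 526 genes and left 13364 for testing.

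The mice were male NSG mice, aged 8 weeks by their labels, an immunodeficient strain that lacks T, B and natural killer cells and so accepts human cells. The study gives that age for the mice at surgery, and the hearts were taken weeks later. The groups were sham mice (S, animals 2, 3 and 5), mice labelled as carrying splenic HCT116 tumours (T, animals 11, 12 and 15) and mice labelled as carrying splenic HCT116 and given ACVR2B/Fc (A + T, animals 20, 21 and 22), with n = 3 in each. HCT116 is a human colorectal cancer line. It was injected into the spleen to produce liver metastases in the study's model, while sham mice received the vehicle. ACVR2B/Fc, given weekly, is a soluble form of an activin receptor joined to an antibody fragment, which traps activins, myostatin and other ligands of that receptor. Each tumour came from this single cell line, and no library analysed here was labelled as that of a sham mouse given ACVR2B/Fc.

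The identity of the group labelled T was in doubt. The change from S to T in these counts was set, gene by gene, against the study's own gene list. It ran far more closely with the values given there for sham mice treated with ACVR2B/Fc than with those for tumour hosts. The group is therefore called T only as its label, and the parts of tumour and ACVR2B/Fc in any comparison with T cannot be told apart. Because the 2 comparisons with T use the same libraries labelled T, and both comparisons with S use the same sham libraries, their values are given side by side and not as independent evidence.

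The libraries held 12392222 to 19732471 counts, so that 3 counts equalled 0.152 to 0.242 CPM (a count scaled to library size), and the ribosomal gene Rn45s took 4.57% to 19.6% of the counts. All 8 cardiomyocyte markers were present in every library, with a summed level of 51644 to 81610 CPM. The 5 atrial markers summed to 2999 to 3084 CPM in S, 861 to 4551 CPM in T and 793 to 2051 CPM in A + T. In T, animal 12 had 4551 CPM and animal 15 had 861 CPM. The part of this difference between libraries in the results below was not tested. Markers of airway and lung summed to 0.166 to 2.08 CPM in S but to 1077 CPM in animal 22 of A + T and to 103 CPM in animal 12 of T, with 0.789 to 1.87 CPM in the other 4 libraries of T and A + T. Only 2 of the 5 markers on this list, Scgb1a1 and Scgb3a1, were in the count table. Scgb3a1 had 7 counts in animal 22, so nearly all of the level there came from Scgb1a1, a defining airway marker. Scgb1a1 was at 0 counts in at least 1 library each of S and A + T. Values without animal 12 or 22 are given for the results that leaving them out moved most.

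Most of these transporters belong to a few systems. Slc3a2 encodes the heavy chain of heterodimeric transporters (4F2hc, CD98), which carries light chains such as Slc7a5 (LAT1) and Slc7a8 (LAT2) to the cell surface, where they exchange large neutral amino acids such as leucine. Slc43a1 (LAT3) transports branched-chain amino acids without a heavy chain, Slc1a5 (ASCT2) exchanges neutral amino acids including glutamine, and Slc38a1, Slc38a2 and Slc38a4 (SNAT1, SNAT2 and SNAT4) take up small neutral amino acids together with sodium. Slc7a1 and Slc7a2 (CAT1 and CAT2) carry the cationic amino acids arginine, lysine and ornithine. In muscle, leucine and arginine brought in by such carriers are sensed by the kinase complex mTORC1, which drives protein synthesis, while amino acid shortage acts through the transcription factor ATF4, and SNAT2 is a classical gene of that response.

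Sequence just before a RefSeq gene start is shown for genes on which the results below turn. RefSeq promoters of GRCm38.p6, running from 250 bases before to 50 bases after a gene start, were found for 6 of the 10 genes, 9 promoters in all: Slc3a2, Slc7a8, Slc43a1, Slc38a2, Slc38a4 and Slc7a1. Positions are counted from the RefSeq start of each promoter. For each gene shown, that start lies inside the GENCODE gene range given with its values below. The stretches of Slc3a2 and Slc43a1 lie inside that range too, whereas those of Slc7a8 and Slc38a2 lie just outside it. The first 3 stretches lie outside the gene's GENCODE exons and all are written 5′ to 3′ on the gene's strand, at chr14:54781947-54782046 (minus strand, 160 to 61 bases before the gene start) for Slc7a8, at chr15:96699731-96699830 (minus strand, 102 to 3 bases before) for Slc38a2 and at chr19:8713898-8713960 (minus strand, 63 to 1 bases before) for Slc3a2. The E-box of Slc43a1, with its flanks, lies at chr2:84840249-84840274 (plus strand), 74 to 49 bases before that RefSeq start, and its capitals mark the CACGTG motif.
Slc7a8: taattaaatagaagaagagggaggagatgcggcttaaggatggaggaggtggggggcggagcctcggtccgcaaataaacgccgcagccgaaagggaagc
Slc38a2: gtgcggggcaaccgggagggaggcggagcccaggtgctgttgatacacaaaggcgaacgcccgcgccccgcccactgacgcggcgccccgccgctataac
Slc3a2: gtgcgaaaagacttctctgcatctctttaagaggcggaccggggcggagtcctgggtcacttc
Slc43a1: ggtctccctcCACGTGgcagccgtgg
The Slc38a2 stretch was richer in G and C (72.0%) than those of Slc3a2 (57.1%) and Slc7a8 (56.0%). Of the 9 promoters, 1 held the E-box CACGTG, that of Slc43a1, against 7.15% of all 32851 promoters of the same length. None of the 9 held the C/EBP-ATF composite element TGATGNAA, which 3.97% of all promoters hold. Both strands were searched, an occurrence of one motif may overlap the other, and the absence of these letters from a window says nothing of binding elsewhere.

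Levels between genes were compared per gene length, on the deposited log2 scale. In S, Slc38a2 had the highest level (5.78, range 5.69 to 5.89), at percentile 92.6 of the genes tested, followed by Slc3a2 (3.92) and Slc7a1 (3.28). Slc38a1 (2.13) and Slc1a5 (2.12) overlapped each other, and Slc38a4 (1.68), Slc7a5 (1.0) and Slc7a8 (0.39) followed without overlap between neighbours. Slc7a2 (-0.14) and Slc43a1 (-0.68) were lowest and overlapped, with Slc43a1 at percentile 9.52. Light chains were thus listed well below their heavy chain in sham hearts.

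The first 3 places, Slc38a2, Slc3a2 and Slc7a1, were the same in T and A + T, without overlap between neighbours. In T, the 4 lowest genes, Slc7a5 (0.72), Slc7a8 (0.41), Slc7a2 (0.31) and Slc43a1 (0.13), each overlapped their neighbour. In A + T, Slc7a8 (1.40) and Slc7a2 (0.82) stood above Slc7a5 (0.47) by their means, the reverse of the order in S, although the ranges of Slc7a2 and Slc7a5 met. Slc38a2 made up 56.8% ± 2.15 (SD, n = 3) of the summed level of the 10 genes in S, 54.0% ± 5.72 in T and 46.4% ± 3.89 for A + T. The share of Slc3a2 was 15.7% ± 0.569, 21.3% ± 2.55 and 22.6% ± 3.91 in the same order, and that of Slc7a8 was 1.36% ± 0.130, 1.13% ± 0.442 and 3.17% ± 1.21. These shares are a description and were not tested.

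**Figure D1:**
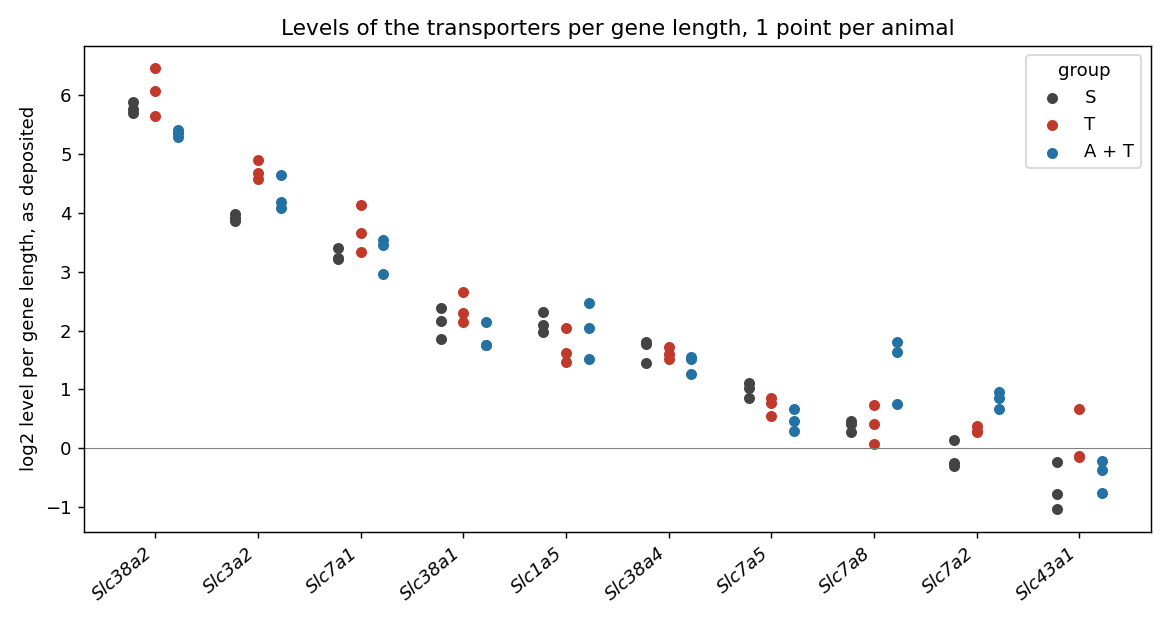
Log2 level per gene length, as deposited, of the 10 transporters (vertical axis) by gene (horizontal axis), with 1 point per animal and colours for S, T and A + T. Slc38a2 lies highest in every group and Slc43a1 has the lowest mean in every group, while the Slc7a8 and Slc7a2 points of A + T lie above those of S.

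Counts were then compared between groups with edgeR's quasi-likelihood test, with all 9 libraries in the same fit and Benjamini-Hochberg adjustment over all genes tested, and a gene was called at an adjusted P under 0.05. Changes are log2 fold changes fitted to the counts, and levels are CPM scaled by the trimmed mean of M-values (TMM). Animals were the replicates, and the reads carried no molecular identifiers, so a count of molecules was not available. In bulk tissue, fewer cells of a type and less RNA per cell cannot be told apart.

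T vs. S asks how the hearts labelled as those of tumour hosts differ from sham. In this comparison Slc3a2, the heavy chain, was the only transporter of the 10 that was called, and it was higher. That is 1 of 10, where 21.2% of all genes tested were called (10.3% higher). At an unadjusted P under 0.05 there were 4 of 10 (35.4% of all genes), when the study's own criterion (fold change of 1.5 or more, unadjusted P under 0.05) was used there were 2 of 10, Slc3a2 and Slc43a1 (14.2% of all genes), and 4 of 10 did not overlap between groups (42.6% of all genes). The 10 genes had a median log2 fold change of 0.27, with 7 positive, against -0.0038 over all genes tested. These shares are near the background. Leaving out each animal in turn gave 1 to 3 calls, with 2 without animal 5 or 22 and 3 without animal 12.

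A + T vs. T compares the groups labelled as tumour hosts with and without ACVR2B/Fc, with the doubt on the label T given above. Slc7a8 was called higher and Slc38a2 lower, 2 of 10, where 5.88% of all genes were called (3.09% higher and 2.79% lower). There were 5 of 10 at an unadjusted P under 0.05 (22.4% of all genes), 2 of 10 at the study's thresholds (8.11%) and 4 of 10 without overlap (25.4%). The median was -0.32, with 7 negative, against 0.01 over all genes. The calls were 0 without animal 3, 11, 20 or 21, 1 without animal 2, 12 or 15, and 4 without animal 22.

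In A + T vs. S, Slc7a2 and Slc7a8 were called, both higher, which is 2 of 10, where 8.31% of all genes were called (4.67% higher). There were 5 of 10 at an unadjusted P under 0.05 (26.1% of all genes), 2 of 10 at the study's thresholds (8.91%) and 5 of 10 without overlap (32.4%). The median was -0.0035, with 5 genes in each direction, against 0.0034 over all genes. The calls were 1 without animal 2, 3, 5, 20 or 21 and 3 without animal 12 or 15.

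**Figure D2:**
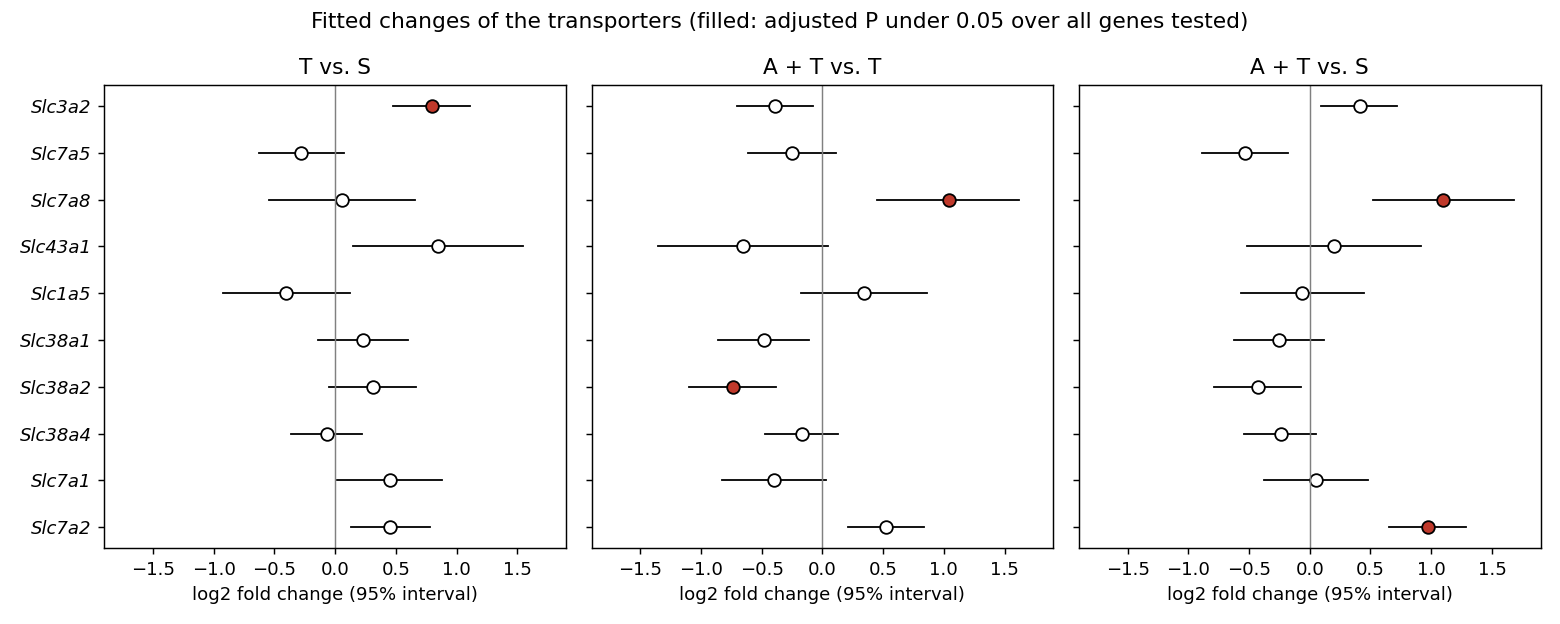
Fitted log2 fold change of each transporter (horizontal axis) with its 95% interval (lines), 1 panel per comparison, where filled points had an adjusted P under 0.05 over all genes tested. Filled points are Slc3a2 at 0.80 in T vs. S, Slc7a8 at 1.04 and Slc38a2 at -0.74 in A + T vs. T, and Slc7a8 at 1.10 and Slc7a2 at 0.97 in A + T vs. S.

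The heavy chain Slc3a2, on chromosome 19 (GRCm38, 8706882 to 8723369, minus strand), was at 43.1, 45.0 and 46.9 CPM in S, 70.5, 76.2 and 87.9 CPM in T, and 50.0, 53.8 and 74.9 CPM in A + T. All libraries labelled T were above all S libraries, and so were all A + T libraries, with animal 22 the highest of A + T and inside the range of T. In T vs. S it rose 1.74-fold, a log2 fold change of 0.80 (SE 0.14, 95% interval 0.48 to 1.11, adjusted P = 0.00374), from 45.0 ± 1.93 to 78.2 ± 8.89 CPM (mean ± SD, n = 3). This call was made in all 18 alternative fits. In A + T vs. T the change was -0.39 (SE 0.14, interval -0.70 to -0.08, adjusted P = 0.135), and without animal 22 it was -0.59 (adjusted P = 0.00714), so this library decides whether the gene is called lower. Against S, A + T differed by 0.41 (SE 0.14, interval 0.09 to 0.72, adjusted P = 0.106), and 0.21 without animal 22.

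Cell type markers moved with T vs. S too. Of the marker lists, 5 of 6 endothelial, 5 of 5 fibroblast and 4 of 4 smooth muscle and pericyte genes were called lower in T vs. S, and their summed levels were 809 to 939, 1249 to 1431 and 344 to 421 CPM in S against 466 to 584, 768 to 899 and 167 to 235 CPM in T. In A + T they were 605 to 728, 957 to 1384 and 206 to 304 CPM. Other markers called in T vs. S were 3 of 8 cardiomyocyte genes (2 higher, 1 lower) and 1 of 6 macrophage genes (higher). So were 1 of 5 atrial genes (lower) and the 1 airway and lung gene tested (higher). That gene, Scgb3a1, had 3, 14 and 6 counts in S and 18, 394 and 15 in T, so animal 12 held most of them. Neither DESeq2 nor limma-voom called it. The part of these cell types in the Slc3a2 result was not tested.

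The light chain Slc7a5 (chromosome 8, 121881150 to 121907694, minus strand) was at 6.25, 7.11 and 7.52 CPM in S, 5.02, 6.24 and 5.89 CPM in T, and 4.21, 4.74 and 5.48 CPM in A + T. Every T and every A + T library was below every S library, animal 12 of T only just, while T and A + T overlapped, but the gene was not called in any comparison. The log2 fold change was -0.28 (interval -0.63 to 0.07, adjusted P = 0.233) in T vs. S, -0.25 (interval -0.61 to 0.11, adjusted P = 0.402) in A + T vs. T and -0.53 (SE 0.16, interval -0.89 to -0.18, adjusted P = 0.0675) in A + T vs. S. This LAT1 gene thus had no measured rise beside that of its heavy chain.

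The light chain Slc7a8 (chromosome 14, 54722209 to 54781946, minus strand) was at 5.31, 4.77 and 5.5 CPM in S, 5.27, 6.66 and 4.12 CPM in T, and 14.0, 12.6 and 6.72 CPM in A + T, from 44 to 227 counts a library. Animals 20 and 21 were far above all other libraries, whereas animal 22 stood only just above animal 12 of T. The gene rose 2.05-fold in A + T vs. T, a log2 fold change of 1.04 (SE 0.26, interval 0.45 to 1.62, adjusted P = 0.0475), and 2.14-fold in A + T vs. S, at 1.10 (SE 0.26, interval 0.52 to 1.68, adjusted P = 0.0309). In T vs. S it was 0.06 (interval -0.54 to 0.66, adjusted P = 0.898), an interval that still allows a change of moderate size in either direction.

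The Slc7a8 call against T was the least firm of the 5 calls, made in 6 of 18 alternative fits, and that against S was made in 13 of 18. Without animal 22 the change was 1.29 in A + T vs. T (adjusted P = 0.00391) and 1.37 in A + T vs. S (adjusted P = 0.00324). Leaving out any one of the other 8 animals ended the call against T, with 0.83 (adjusted P = 0.128) without animal 20, 0.94 (adjusted P = 0.115) without animal 21 and 1.23 (adjusted P = 0.0592) without animal 12. Over all 9 such fits with edgeR, the adjusted P ran from 0.00391 to 0.158. The call against S was lost without animal 20, 21, 2, 3 or 5 (adjusted P 0.0783, 0.0791, 0.103, 0.113 and 0.0790). Both changes kept their direction in every alternative fit. Macrophage markers moved in the same comparisons, with 5 of 6 called higher in A + T vs. T and 6 of 6 in A + T vs. S, and a summed level of 265 to 299 CPM in S, 240 to 330 CPM in T and 491 to 727 CPM in A + T. Animal 22 had the highest macrophage marker sum (727 CPM) and the least Slc7a8 of A + T. Most of that sum was Lyz2 (9055 counts), and the markers did not share an order within A + T. By unscaled counts, Lyz2 and Fcgr1 (103) were highest in animal 22. Adgre1 (492), Csf1r (1374), Cd68 (399) and C1qa (1294) were highest in animal 20, which also had the most Slc7a8. In A + T vs. T, 3 of 5 fibroblast and 1 of 6 endothelial markers were called higher too, at the summed levels given above, while in A + T vs. S 0 of 5 fibroblast markers were called by edgeR or DESeq2 (1 at an unadjusted P under 0.05) and 1 of 6 endothelial markers was lower. Smooth muscle and pericyte markers were called lower in A + T vs. S for 2 of 4 genes. The part of these cell types in the Slc7a8 result was not tested.

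Light and heavy chain RNA were also set against each other within each library, as the log2 ratio of their CPM, which does not depend on library scaling. Slc7a5 over Slc3a2 was -2.79, -2.66 and -2.64 in S, -3.81, -3.61 and -3.90 in T, and -3.57, -3.51 and -3.77 in A + T. All T and A + T libraries were below all S libraries. The difference was -1.08 in T vs. S (P = 0.10), -0.92 in A + T vs. S (P = 0.10) and 0.16 in A + T vs. T (P = 0.200) by a two-sided exact permutation test, whose smallest possible P with 3 against 3 is 0.1, so no difference could pass 0.05.

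Slc7a8 over Slc3a2 was -3.02, -3.24 and -3.09 in S, -3.74, -3.52 and -4.42 in T, and -1.83, -2.10 and -3.48 in A + T. T was below S without overlap, animals 20 and 21 were above all other libraries, and animal 22 lay below S and just above T. The difference was -0.78 in T vs. S (exact permutation P = 0.10), higher in A + T than in T (mean -2.47 against -3.89, P = 0.10) and 0.65 in A + T vs. S (P = 0.400). Leaving out 1 animal moved these differences: T vs. S was -0.51 without animal 15, and A + T vs. S was 1.15 without animal 22 and 0.33 without animal 20.

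**Figure D3:**
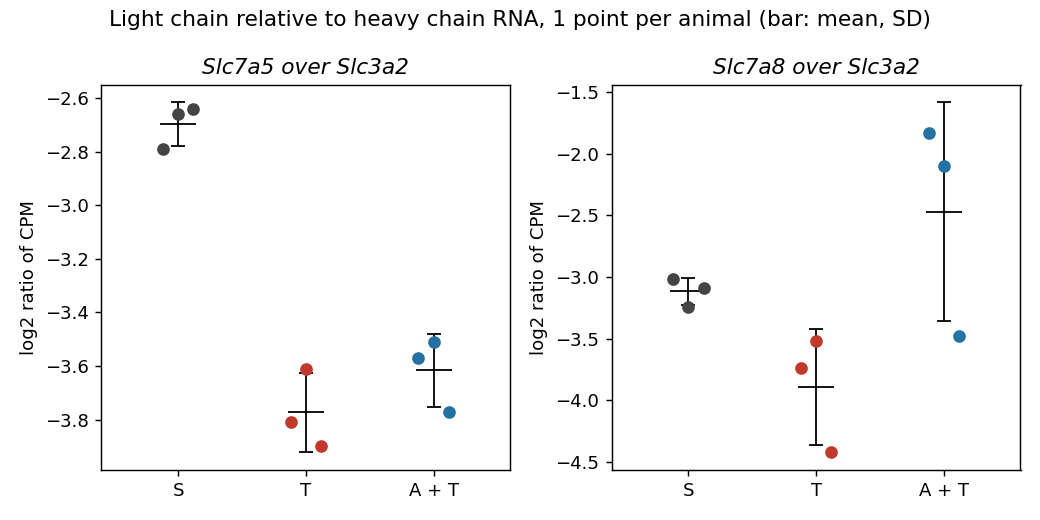
Log2 ratio of light chain to heavy chain CPM (vertical axis) in S, T and A + T (horizontal axis), with 1 point per animal and bars for the mean and SD. For Slc7a5 over Slc3a2 the means were -2.70, -3.77 and -3.62, and for Slc7a8 over Slc3a2 they were -3.12, -3.89 and -2.47, with animal 22 at -3.48.

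Slc43a1, the LAT3 gene (chromosome 2, 84838850 to 84863594, plus strand), had the lowest level, with 1.60, 2.39 and 1.30 CPM in S, 2.54, 4.52 and 2.53 CPM in T, and 1.61, 2.15 and 2.40 CPM in A + T. All T libraries were above all others, with animal 12 the highest. The log2 fold change was 0.85 (SE 0.32, interval 0.15 to 1.55, adjusted P = 0.0826) in T vs. S, which passed the study's thresholds but was not called and was 0.50 (adjusted P = 0.303) without animal 12, -0.65 (SE 0.32, interval -1.35 to 0.05, adjusted P = 0.257) in A + T vs. T, where it was -0.30 (adjusted P = 0.629) without animal 12, and 0.20 (interval -0.52 to 0.92, adjusted P = 0.736) in A + T vs. S. Among genes with a promoter entry, it alone carried the E-box shown above.

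Slc1a5, the ASCT2 gene (chromosome 7, 16781340 to 16798274, plus strand), was at 10.7, 11.7 and 13.7 CPM in S, 7.50, 11.4 and 8.33 CPM in T, and 11.4, 7.82 and 15.3 CPM in A + T. Every pair of groups overlapped. Its change was -0.40 in T vs. S (interval -0.92 to 0.12, adjusted P = 0.248), 0.34 in A + T vs. T (interval -0.18 to 0.86, adjusted P = 0.425) and -0.06 in A + T vs. S (interval -0.57 to 0.45, adjusted P = 0.899). A + T vs. T was 0.08 without animal 22 and 0.55 without animal 12, and T vs. S was -0.61 without animal 12, with none of them called.

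The sodium-coupled transporters lie beside each other on chromosome 15, all on the minus strand, at 96571418 to 96642913 (Slc38a1), 96687392 to 96699730 (Slc38a2) and 96994820 to 97055956 (Slc38a4). Slc38a2 was at 241, 276 and 252 CPM in S, 311, 234 and 408 CPM in T, and 196, 192 and 183 CPM in A + T. A + T held the lowest and most even values, below all S and all T libraries, while T was widely spread around S. In A + T vs. T it fell to 0.600-fold, a log2 fold change of -0.74 (SE 0.16, interval -1.10 to -0.38, adjusted P = 0.0290), from 318 ± 87.1 to 190 ± 6.68 CPM. Against S, A + T differed by -0.43 (SE 0.16, interval -0.79 to -0.07, adjusted P = 0.126), and in T vs. S 0.31 (interval -0.05 to 0.67, adjusted P = 0.201).

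The Slc38a2 call depended on which libraries were in the fit. Against T it was lost without animal 11 (-0.75, adjusted P = 0.0971), 20 (-0.76, 0.0681), 21 (-0.74, 0.0689) or 3 (-0.74, 0.0502), and when only these 2 groups were fitted (-0.74, 0.0856), and it stood without animal 22 (-0.71, adjusted P = 0.0409). Without animal 12 it was -0.92 and without animal 15, the highest T library, -0.52, both still called by edgeR (adjusted P = 0.00913 and 0.0494). Without animal 12, T vs. S was also called, at 0.49 (adjusted P = 0.0231), and A + T vs. S at -0.43 (adjusted P = 0.0419). Without animal 15, T vs. S was 0.10 (adjusted P = 0.628) and A + T vs. S was called at -0.42 (adjusted P = 0.0498), as it was with only the groups compared in the fit (-0.43, adjusted P = 0.0257). The lower level in A + T than in T kept its direction in all 18 alternative fits. The part of the cell types whose markers were called higher in A + T vs. T (5 of 6 macrophage, 3 of 5 fibroblast and 1 of 6 endothelial genes) was not tested here either.

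The neighbours of Slc38a2 differed less between groups. Slc38a1 was at 43.8, 30.6 and 37.5 CPM in S, 41.1, 52.9 and 37.2 CPM in T, and 28.3, 37.3 and 28.6 CPM in A + T, so that every pair of groups overlapped. Its change was 0.23 (interval -0.14 to 0.60, adjusted P = 0.347), -0.48 (SE 0.17, interval -0.86 to -0.11, adjusted P = 0.122) and -0.25 (interval -0.62 to 0.12, adjusted P = 0.380) for T vs. S, then A + T vs. T, then A + T vs. S. The first of these was 0.07 without animal 12, 0.11 without animal 3 and 0.37 without animal 2, none called. Slc38a4 was at 10.7, 13.3 and 13.7 CPM in S, 12.9, 11.9 and 11.1 CPM in T, and 11.1, 9.33 and 11.5 CPM in A + T, again with overlap throughout. In the same order its change was -0.07 (interval -0.36 to 0.22), -0.17 (interval -0.47 to 0.13) and -0.24 (interval -0.54 to 0.05), with adjusted P of 0.744, 0.494 and 0.280.

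The cationic transporter Slc7a1 (chromosome 5, 148327410 to 148399904, minus strand) was at 76.9, 68.4 and 67.5 CPM in S, 91.9, 73.0 and 127 CPM in T, and 56.7, 84.1 and 80.1 CPM in A + T. Animal 15 of T was well above all others, and every pair of groups overlapped. The change was 0.45 in T vs. S (SE 0.19, interval 0.02 to 0.88, adjusted P = 0.123), -0.40 in A + T vs. T (SE 0.19, interval -0.83 to 0.03, adjusted P = 0.254) and 0.05 in A + T vs. S (interval -0.38 to 0.48, adjusted P = 0.894). Without animal 12 it was called in T vs. S, at 0.63 (adjusted P = 0.0415), and without animal 15 the change was 0.23 (adjusted P = 0.376).

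The cationic transporter Slc7a2 (chromosome 8, 40862396 to 40922308, plus strand) was at 6.52, 6.24 and 8.61 CPM in S, 9.42, 9.57 and 10.1 CPM in T, and 15.2, 14.1 and 12.4 CPM in A + T. The groups were ordered S, T and A + T with no overlap between any of them. Over all genes, 42.6% did not overlap in T vs. S, 25.4% in A + T vs. T and 32.4% in A + T vs. S. From S to A + T it rose 1.96-fold, a log2 fold change of 0.97 (SE 0.14, interval 0.65 to 1.29, adjusted P = 0.00543), from 7.13 ± 1.29 to 13.9 ± 1.43 CPM, and this call was made in all 18 alternative fits. The change was 0.45 in T vs. S (SE 0.15, interval 0.13 to 0.78, adjusted P = 0.0521) and 0.52 in A + T vs. T (SE 0.14, interval 0.21 to 0.84, adjusted P = 0.0588), both just short of the threshold. Without animal 22 both were called, at 0.46 and 0.60 (adjusted P = 0.0337 and 0.0390), and without animal 5 too, at 0.60 and 0.52 (adjusted P = 0.0213 and 0.0474). The macrophage markers given above rose in the same A + T vs. S comparison, with 6 of 6 called. In it, 2 of 4 smooth muscle and pericyte markers and 1 of 6 endothelial markers were called lower. The part of these cell types in the Slc7a2 result was not tested.

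**Figure D4:**
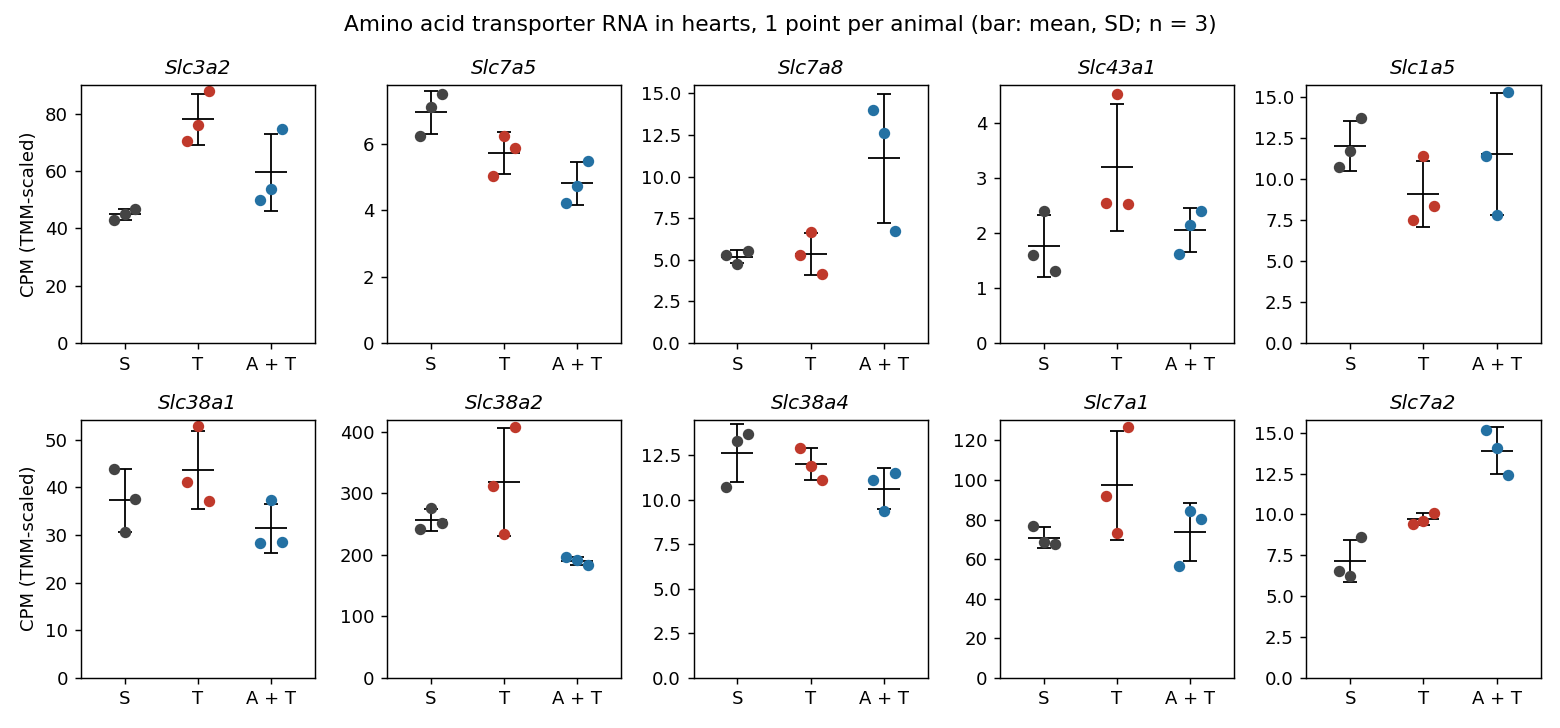
TMM-scaled CPM (vertical axes, from 0) of each transporter in S, T and A + T, with 1 point per animal and bars for the mean and SD. Slc3a2 is at 43.1 to 46.9 CPM in S and 70.5 to 87.9 CPM in T, Slc38a2 is at 183 to 196 CPM in A + T, Slc7a2 rises from group to group without overlap, and 1 A + T point of Slc7a8 lies apart from the others at 6.72 CPM.

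A list of 42 other amino acid transporters was read beside these 10, of which 22 were in the count table and tested. In T vs. S, 5 of 22 were called (1 higher, 4 lower), near the 21.2% of all genes, with a median log2 fold change of -0.21. Slc38a5 (SNAT5, a glutamine transporter) fell by 2.64 on the log2 scale, from 27 to 32 counts in S to 8, 3 and 1 counts in T (adjusted P = 0.00544). Slc1a4 (ASCT1, a neutral amino acid exchanger) changed by -0.94, Slc16a10 (TAT1, for aromatic amino acids) by -0.74 and Slc36a2 (PAT2, a proton-coupled transporter) by -0.65, while Slc1a2 (GLT-1, a glutamate transporter) changed by 0.87 (edgeR adjusted P = 0.0271, 0.00408, 0.00922 and 0.0329). Without animal 3, 5, 11 or 15, 3 were called.

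No other transporter was called by edgeR when A + T was compared with T or with S. At an unadjusted P under 0.05 there were 4 and 7, DESeq2 called 1 and 2, and limma-voom 0 and 1. The medians were 0.15 and -0.05. Without animal 22, 2 were called in A + T vs. T and 1 in A + T vs. S, and without animals 11 and 12, each left out alone, 1 and 2 in A + T vs. S.

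Genes through which mTORC1 reads amino acids were all 36 tested. In T vs. S 5 of 36 were called, a share below the 21.2% of all genes: Sesn1 (a gene of the sestrins, which include a leucine sensor) at 0.58, Fnip1 (a folliculin partner) at 0.49, Seh1l (of the GATOR complex) at 0.31 and Lamtor3 (a Ragulator subunit) at 0.31 were higher, and Kptn (of the KICSTOR complex) at -0.35 was lower, with adjusted P of 0.00760, 0.00887, 0.0298, 0.0161 and 0.0409. Lamtor3, at 47.7 ± 1.44 CPM in S and 59.0 ± 3.09 CPM in T, fell by 0.30 on the log2 scale in A + T vs. T (adjusted P = 0.0453) and was the 1 gene of the list called there, a call made without animal 22 but lost without any of the other 8. For A + T vs. S edgeR called 0, with 7 at an unadjusted P under 0.05, 1 called by DESeq2 and 1 by edgeR without animal 15 or 22. The T vs. S count was 2 without animal 2, 3 without animal 5, 12 or 15, and 9 without animal 22, and it was 0 when library size alone set the scale.

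Of 20 genes of the response to amino acid shortage, 5 were called in T vs. S, near the 21.2% of all genes, and not in a common direction. Chac1, a glutathione-degrading enzyme, was at 2.90 ± 1.82 CPM in S and 9.43 ± 2.80 CPM in T, a change of 1.74 (SE 0.36, adjusted P = 0.00755), and Cebpb, a transcription factor that also acts outside this response, changed by 1.15 (adjusted P = 0.0263). Phgdh, of serine synthesis, changed by -1.43, Aldh1l2, a mitochondrial folate enzyme, by -0.91 and Gpt2, an alanine aminotransferase, by -0.41 (edgeR adjusted P = 0.0219, 0.0471 and 0.0329). The count was 1 without animal 2 or 11, 2 without animal 5 or 12 and 3 without animal 3. For A + T against T and against S edgeR called 0, with 5 and 3 at an unadjusted P under 0.05, and DESeq2 called 0 and 1. Without animal 22, 1 was called in A + T vs. T, and without animal 5, 15 or 20, 1 in A + T vs. S.

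Enzymes that make or use the amino acids carried by these transporters were read as well. Of 16 enzymes of glutamine, glutamate and arginine, 14 were in the count table and 12 were tested. Called were 4 of 12 in T vs. S, 2 of 12 in A + T vs. T and 4 of 12 in A + T vs. S, where 21.2%, 5.88% and 8.31% of all genes were called. Glul, glutamine synthetase, rose by 1.38 on the log2 scale, from 314 ± 45.8 CPM in S to 819 ± 63.4 CPM in T (adjusted P = 0.000115), with 571 ± 54.8 CPM in A + T, lower than T (-0.52, adjusted P = 0.0333) and higher than S (0.86, adjusted P = 0.00408). The nitric oxide synthase Nos2 changed by -1.65 in T vs. S and by 1.02 in A + T vs. T (edgeR adjusted P = 0.00111 and 0.0338), and the endothelial Nos3, at 36.9 ± 2.76, 26.8 ± 3.20 and 25.4 ± 3.00 CPM in S, T and A + T, changed by -0.47 in T vs. S and by -0.54 in A + T vs. S (adjusted P = 0.0162 and 0.0200). Aldh18a1, of proline and ornithine synthesis, changed by -1.0 and -0.68 in the same comparisons (adjusted P = 0.00123 and 0.0187).

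From S to A + T, Arg1, an arginase of macrophages and liver, was also called (edgeR adjusted P = 0.0271), a gene named after its values were seen. It had 4, 1 and 5 counts in S, 4, 74 and 20 counts in T, and 21, 473 and 106 counts in A + T, so animal 21 held most of them. The counts of called enzymes ran from 0 to 3 in A + T vs. T and from 1 to 4 in A + T vs. S when each animal was left out, with 0 without animal 3, 11, 12 or 20, 1 without animal 2, 5 or 21 and 3 without animal 22 in the first, and 1 without animal 2 and 2 without animal 3, 5 or 21 in the second.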

How the data were processed

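Heart RNA of 9 mice, grouped by the sample labels, was analysed. The authors used RNA with an integrity number of 7 or more, sequenced mRNA libraries as 75-base paired ends, mapped the reads with STAR to mm10 and assigned unique, strand-matched pairs to refGene genes (featureCounts). They deposited raw counts per gene, and log2 values scaled by library and gene length, for which the submitters' processing notes name edgeR. Once an offset per library was removed, these log2 values differed from the log2 CPM computed here by a constant per gene (median SD 0.00601). Unique mapping can lose reads of near-identical copies.

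Genes below 0.5 CPM in 5 or more of the 9 libraries were left out, as in the study. The 3 comparisons among S, T and A + T came from 1 fit with edgeR 4.0.16 (R 4.3.3; quasi-likelihood, TMM). An SE is the change over the square root of F. The steps were tested on simulated data. No 2 replicates agreed within sampling noise (lowest chi-square per gene 7.48). Labels do not say more of the animals' origin. P-values weigh a difference between groups against the spread between these samples, as the fit estimated it. The 95% intervals include the spread between animals, whereas the limit of 3 counts covers counting error only.

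The members, gene lists and tests were chosen with earlier results of these data known. All 10 transporters are named, and of other lists the genes called in T vs. S or A + T vs. T, at most 4 per list and comparison, by size of change. The fifth called gene of a list, and Arg1, were named after their values were seen. Gene positions are from GENCODE M21 (GRCm38, the assembly of mm10), and promoters from RefSeq. DESeq2 1.42.0, limma 3.58.1, other scalings and filters, and each animal left out were the alternatives.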

Additional observations from a re-analysis of the deposited data

How the results depend on the processing

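Of the fold changes of the 10 transporters under all alternatives, 498 kept their direction and their side of the threshold, 22 lost the call, 14 gained it and 6 turned direction. The calls of Slc3a2 in T vs. S and of Slc7a2 in A + T vs. S were made under every alternative. Those of Slc7a8 and Slc38a2 in A + T vs. T were called in 6 and 13 of 18. The light to heavy chain differences kept their direction in all 36 fits that left out an animal. Depth bears most on Slc43a1, which had the lowest level. No paired analysis was possible because the groups share no animal numbers. The causes of the differences below were not tested.

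Of the transporters, 2 were called in T vs. S with limma-voom, with only the groups compared in the fit and at the study's thresholds. In A + T vs. T, 1 was called with limma-voom, with library size alone and with the deposited log2 values, and 0 with only the groups compared. Leaving out each animal gave 1 to 3, 0 to 4 and 1 to 3 calls in the 3 comparisons (T vs. S, then A + T vs. T, then A + T vs. S). Fold changes that turned direction ran, over the same fits, from -0.13 to 0.21 for Slc7a8 in T vs. S (-0.0011 without animal 3), from -0.05 to 0.21 for Slc7a1 in A + T vs. S (-0.01 without animal 22) and from -0.31 to 0.15 for Slc1a5 in A + T vs. S (0.04 without animal 5).

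Over all genes, library size alone called 1636, 438 and 555 genes in the 3 comparisons, against 2838, 786 and 1110, DESeq2 called 1198 in A + T vs. T, and the fit of only the groups compared called 217 there. Leaving out an animal gave 1765 to 3786, 130 to 1006 and 269 to 1086. The share of higher calls was 48.3% in T vs. S and 35.8% with library size alone, and 52.5% in A + T vs. T, 65.5% with upper-quartile scaling and 71.7% with library size alone.

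Other transporters called in A + T vs. T were 1 with DESeq2, and in A + T vs. S 2 with DESeq2 and 1 each with limma-voom, upper-quartile scaling and only the groups compared. Left-out animals gave 3 to 6, 0 to 2 and 0 to 2. For mTORC1 sensing, library size alone called 0 in T vs. S, upper-quartile scaling, library size alone and only the groups compared called 0 in A + T vs. T, and DESeq2 and only the groups compared called 1 in A + T vs. S, and left-out animals gave 2 to 9, 0 to 1 and 0 to 1. For the amino acid response DESeq2 called 1 in A + T vs. S, and left-out animals gave 1 to 6, 0 to 1 and 0 to 1. Of the enzymes, 1 was called in A + T vs. T with library size alone and 0 with only the groups compared, and left-out animals gave 0 to 3 and, in A + T vs. S, 1 to 4.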
